A study of Mus musculus with 6 samples.

Results

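Natural killer (NK) cell receptor genes were followed in CD8 T cells of the mouse spleen. The set holds 10 genes, chosen by symbol and read from the authors' full table of 17744 genes: Klrd1, Klrc1, Klrc2, Klrk1, Klre1, Klrg1, Klrb1c, Klra7, Ncr1 and Fcer1g. The series compared 3 control libraries, labelled wild type and control, with 3 libraries labelled with focused ultrasound ("fus irradiation"), sound energy brought to a focus inside the body. Both groups are spleen cells sorted as CD45+, CD3+ and CD8a+, with a stated purity above 90%. The labels give no strain, age, sex, dose, interval after treatment or batch, and the field named genotype repeats the treatment in the ultrasound group. Nothing in the labels says whether each library came from its own animal, so the p-values measure the spread between these samples, which may be technical. Levels are FPKM, which divide the fragments of a gene by its length and by the size of the library, as the authors deposited them.

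Killer lectin-like receptors are C-type lectin-like proteins of the cell surface, and most of their genes lie in one cluster, the NK gene complex on chromosome 6. CD94, the product of Klrd1, pairs with the inhibitory NKG2A (Klrc1) or the activating NKG2C (Klrc2), and both pairs read the class I-like molecule Qa-1. NKG2D (Klrk1) reads ligands that stressed cells display, Ly49 receptors such as Ly49G (Klra7) read classical class I molecules, and activating receptors signal through small adaptor chains such as the Fc receptor gamma chain (Fcer1g). NK cells carry many of these receptors, and CD8 T cells acquire several of them after activation and in memory.

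The ultrasound libraries did not form 1 tight group, which bears on every result below. Recovered read totals ran from 35024080 to 38113103 per library. Over genes with enough reads, the chi-square per degree of freedom was 24.3 between ultrasound 2 and ultrasound 3 and 22.1 to 45.6 between controls. Ultrasound 1 stood at 60.8 to 114 from the controls and at 147 and 161 from ultrasound 2 and ultrasound 3, so it was nearer to the controls than to its own group. No pair agreed within counting noise, and all 6 libraries were kept as separate samples. Calls among the tested receptor genes are therefore given with and without ultrasound 1. With all libraries the sort markers were not called: Cd3e was 197 ± 10.5 FPKM (SD, n = 3) in the controls and 254 ± 78.4 in the ultrasound group, Cd8a 302 ± 14.5 and 270 ± 33.0, Cd8b1 541 ± 31.9 and 479 ± 58.6, and Ptprc 458 ± 35.5 and 354 ± 68.7, with limma adjusted p-values of 0.141 or higher. Without ultrasound 1, Cd3e was called higher, at a log2 change of 0.60 (adjusted p = 0.00102), and Ptprc lower, at -0.54 (0.00272).

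Of the 10 genes, 9 had at least 1 FPKM in 3 or more libraries and entered the test; each of these 9 had at least 1 FPKM in all 6 libraries. Klrb1c and Fcer1g rose in the ultrasound libraries at an adjusted p under 0.05, and no tested member fell. That is 2 of 9, where 8.11% of the 10655 tested genes passed, 6.55% higher and 1.56% lower. The median log2 change over the 9 was 0.82, against 0.09 over all tested genes. Every ultrasound library lay above every control for Klrk1, Klrc2, Klrb1c and Fcer1g, 4 of 9 tested members where 25.9% of all tested genes did, and also for Ncr1, which was not tested. Every ultrasound library lay below every control for Klrd1, 1 of 9 where 8.96% of tested genes did. Without ultrasound 1, 8 of the 9 passed, 7 higher and Klrd1 lower, where 53.6% of 10497 tested genes passed, 33.8% higher and 19.9% lower. Voom on recovered reads called the same 2 of 10, where 6.05% of genes were called. By a q under 0.05 in the authors' deposited table, Klrk1, Klrb1c, Ncr1 and Fcer1g were higher and Klrd1 lower, where 7.3% of 17744 genes were higher and 4.98% lower. In these bulk libraries, more cells that express a gene and more RNA per cell cannot be told apart.

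**Figure D1:**
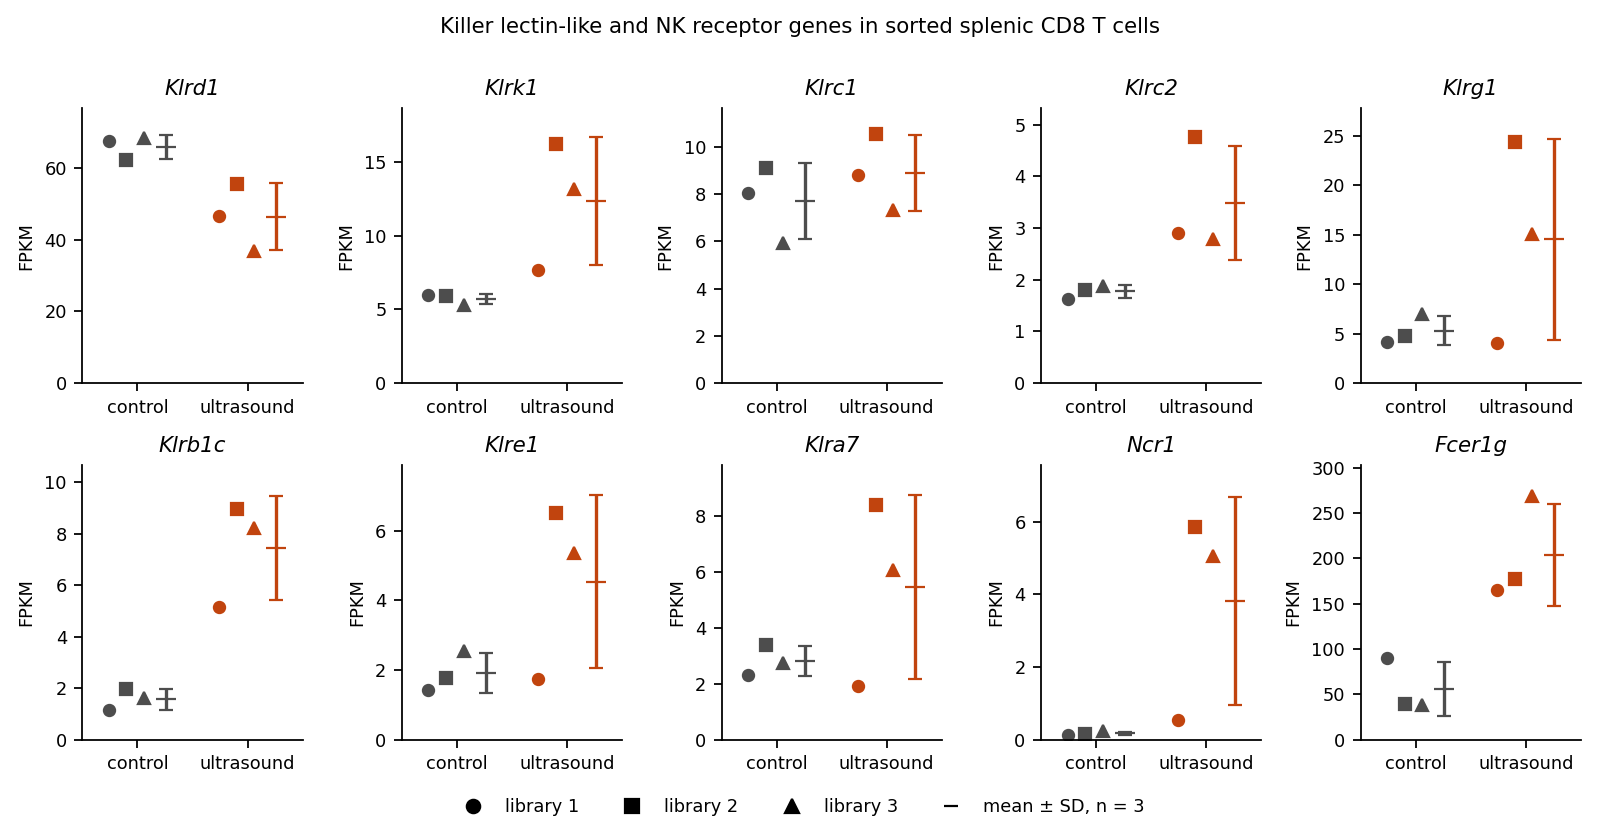
FPKM of each of the 10 genes in the 3 control (grey) and 3 ultrasound (orange) libraries; circles, squares and triangles are libraries 1, 2 and 3, and the bars give the mean ± SD (n = 3). Ultrasound 1 sits among or near the controls for Klrg1, Klre1, Klra7 and Ncr1, and with the other ultrasound libraries for Klrd1, Klrb1c and Fcer1g.

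In the controls the levels, which are scaled by gene length, were put in order. Klrc1, Klrc2, Klrb1c and Klra7 share 40.3%, 30.1%, 18.1% and 14.7% of their 50-base windows with other transcripts, so their places are uncertain. Klrd1 (median 67.5 FPKM) and Fcer1g (38.8) were highest, with ranges that overlapped each other and no other member. Klrc1 (8.04), Klrk1 (5.88) and Klrg1 (4.77) followed, each overlapping its neighbour in this order. Klra7 (2.72) did not overlap Klrg1 or Klrc2, its neighbours in this order, but overlapped Klre1. Klrc2 (1.81), Klre1 (1.77) and Klrb1c (1.60) overlapped, and Ncr1 (0.153) was lowest and apart.

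The DNA before a start site was searched for a motif that several of these genes hold. RefSeq promoter entries (build GRCm38.p6, the same assembly as mm10) were found for 8 of the 10 genes; Klrd1 and Klrg1 had no entry. The core motif of the RUNX family, transcription factors of T and NK cells, was searched as TGTGGT on both strands (ACCACA on the other) in the 250 bases before the most upstream start that the promoter table lists. For Klre1, Klrc1, Klrc2 and Klrk1 the RefSeq gene begins further upstream, so that start is an internal one. The motif was present in Klrk1, Klrc1, Klrc2, Klrb1c, Klre1 and Ncr1, 6 of 8, and in 14.2% of 27025 promoters of that length. Klra7 and Fcer1g did not hold these letters in this window. The windows below are shown to let the flanks be compared; each is printed 5′ to 3′ on the gene's strand, with the motif in capitals and the distance of its first base from the start in brackets.
Klrk1 (-129), chr6:129623978-129624003, minus strand: atagctgtgcTGTGGTtgtgtggggg
Klrc1 (-87), chr6:129679045-129679070, minus strand: tgttgttgttACCACAgcactcgtat
Klrc2 (-36), chr6:129660617-129660642, minus strand: caatagaatcACCACAgcatagaaca
Klrc2 (-9), chr6:129660590-129660615, minus strand: aagtagaattACCACAgagcccagaa
Klrb1c (-89), chr6:128788715-128788740, minus strand: gaaggaaagcTGTGGTcatggtgttt
Klre1 (-229), chr6:129577974-129577999, plus strand: gtgtttaagcTGTGGTtccagagagt
The letters gc stood directly before TGTGGT in Klrk1, Klrb1c and Klre1. They also stood directly after ACCACA, the same on the other strand, in Klrc1 and in Klrc2 (-36). Klrc2 (-9) and the Ncr1 sites, which are printed with that gene, lacked these letters there. Further out the flanks mostly differed between the genes, including between Klrc1 and Klrc2, whose transcripts share sequence. By the GENCODE M21 annotation the Klrk1 and Klrc1 windows lie outside genes, the Klrb1c window lies in an intron of a longer model, and the Klrc2 and Klre1 windows lie in annotated exons of the same gene. A T-box motif, searched as AGGTGT on both strands, was in none of the 8 and in 12% of all promoters, and a STAT motif, searched as TTCNNNGAA, was in none of the 8 and in 7.14%. Sites of different motifs were counted independently. The motifs were chosen after the sequences were seen, and a match is only a description of letters.

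Klrd1, the CD94 chain, was the single member that was lower in all 3 ultrasound libraries. Its level was 67.5, 62.2 and 68.4 FPKM in control 1, 2 and 3, and 46.6, 55.65 and 36.9 FPKM in ultrasound 1, 2 and 3. The groups did not overlap, and the 2 means, 66.0 ± 3.36 and 46.4 ± 9.36 FPKM (SD, n = 3), differed by more than either spread. The log2 change was -0.52 ± 0.15 (SE) with an adjusted p of 0.0799, which missed the threshold. Ultrasound 1 took part fully, with a log2 difference of -0.49 from the controls. Without it the change was -0.53 with an adjusted p of 0.0436; over the 17 limma and voom fits that were run, that p ran from 0.0436 to 0.258. The authors' deposited table gives a log2 fold change of -0.64 with q = 0.00384.

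The NKG2 partners of CD94 did not follow it down. Klrc1, the inhibitory NKG2A chain, was 8.04, 9.10 and 5.94 FPKM in the controls and 8.79, 10.5 and 7.33 FPKM in the ultrasound libraries. The groups overlapped, with a log2 change of 0.19 ± 0.18 and an adjusted p of 0.478, and none of the 17 fits called it. Klrc2, the activating NKG2C chain, was 1.63, 1.81 and 1.88 FPKM in the controls and 2.91, 4.76 and 2.79 FPKM in the ultrasound libraries. Each ultrasound value for Klrc2 was above each control, and the log2 change of 0.67 ± 0.18 had an adjusted p of 0.0656. Without ultrasound 1 the Klrc2 change was 0.75 with an adjusted p of 0.0107, in a range of 0.0107 to 0.248 over the 17 fits. Klrc2 rests on 59 to 183 reads per library. Of the 50-base windows of the longest Klrc1 and Klrc2 transcripts, 40.3% and 30.1% also occur in transcripts of other genes, mostly in each other, so reads may have been divided between them and both levels are uncertain.

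Set against each other within a library, the 3 chains gave ratios that need no scaling between libraries. Klrd1 divided by the sum of Klrc1 and Klrc2 was 6.97, 5.70 and 8.74 in the controls and 3.99, 3.64 and 3.65 in the ultrasound libraries. Ultrasound 1 sat with the other ultrasound libraries here, and the means were 7.14 ± 1.53 and 3.76 ± 0.197 (SD, n = 3). Klrc1 divided by Klrc2 was 4.93, 5.03 and 3.16 in the controls and 3.02, 2.21 and 2.63 in the ultrasound libraries, where control 3 and ultrasound 1 were nearly level. Neither pair of groups overlapped. The exact two-sided permutation p was 0.1 for each, the smallest that 3 against 3 allows, and 0.125 after adjustment over the 5 ratios computed, which were chosen after their values were seen.

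**Figure D2:**
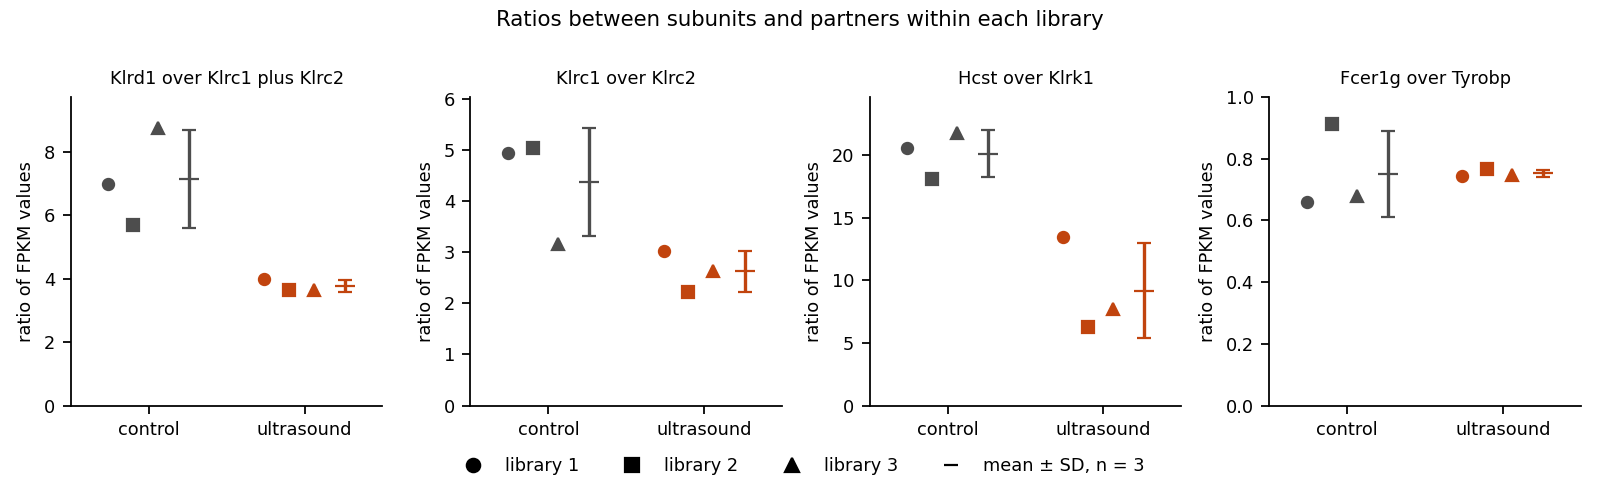
Ratio of FPKM values of 2 chains, or of a chain and its partner, within each library; symbols and bars as in the plot of levels by library. Klrd1 over Klrc1 plus Klrc2, Klrc1 over Klrc2, and Hcst over Klrk1 were lower in all ultrasound libraries, and Fcer1g over Tyrobp overlapped.

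Klrk1, the activating receptor NKG2D, was higher in every ultrasound library, though unevenly. Its level was 5.96, 5.88 and 5.32 FPKM in the controls and 7.66, 16.2 and 13.2 FPKM in the ultrasound libraries. The controls lay close together and ultrasound 1 stood just above them, while ultrasound 2 and 3 were more than 2 times as high as any control. The log2 change was 0.93 ± 0.24 with an adjusted p of 0.0616. Without ultrasound 1 it was 1.22 ± 0.11 with an adjusted p of 0.00037, in a range of 0.00037 to 0.201 over the 17 fits, and the authors' deposited table gives 0.98 with q = 0.00595. Hcst, the DAP10 adaptor through which NKG2D signals, was 122, 106 and 116 FPKM in the controls and 103, 102 and 102 FPKM in the ultrasound libraries, with an adjusted p of 0.241. Hcst divided by Klrk1 was therefore 20.1 ± 1.88 in the controls and 9.17 ± 3.81 in the ultrasound group (SD, n = 3; exact permutation p = 0.1, adjusted 0.125). Klrk1 divided by Klrd1, neighbours 11.5 kb apart on chromosome 6, was 0.0869 ± 0.00855 and 0.271 ± 0.0978, with the same p-values.

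Klrb1c, which encodes NK1.1, the activating receptor used to define NK cells in several mouse strains, rose in the ultrasound libraries. Its level was 1.14, 1.96 and 1.60 FPKM in the controls and 5.15, 8.97 and 8.20 FPKM in the ultrasound libraries, or 106 to 181 reads against 477 to 885. The groups did not overlap, and the ratio of the group means was 4.74. The log2 change was 1.70 ± 0.22 with an adjusted p of 0.030. Klrb1c was also the single member called for ultrasound 1 alone, at 1.27 ± 0.18 with an adjusted p of 0.0345, in a fit where 1.41% of tested genes were called. In that fit, here and for the other genes, ultrasound 1 is 1 library, assumed to vary like the other libraries. Over the 17 fits its adjusted p ran from 0.000276 without ultrasound 1 to 0.159 without control 2, and the call was lost in the fits in which limma called no gene at all, among them those without control 3, without ultrasound 2, without ultrasound 3 and with no filter on low values. Of its 50-base windows, 18.1% occur in other transcripts, mostly those of Gm44511, so part of its reads may belong elsewhere.

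Klrg1, Klre1 and Klra7 shared one pattern: ultrasound 2 and 3 were high and ultrasound 1 was at the level of the controls. Klrg1, an inhibitory receptor for cadherins that marks differentiated effector CD8 T cells and mature NK cells, was 4.19, 4.77 and 6.96 FPKM in the controls and 4.10, 24.4 and 15.1 FPKM in the ultrasound libraries. Klre1, which pairs with KLRI proteins, was 1.43, 1.77 and 2.54 FPKM in the controls and 1.75, 6.50 and 5.37 FPKM in the ultrasound libraries. Klra7, the inhibitory Ly49G receptor, was 2.31, 3.37 and 2.72 FPKM in the controls and 1.90, 8.40 and 6.08 FPKM in the ultrasound libraries. In each case ultrasound 1 fell within or below the range of the controls, so the groups overlapped. None of the 3 was called: the adjusted p was 0.234 for Klrg1, 0.186 for Klre1 and 0.325 for Klra7. Without ultrasound 1 all 3 were called, at log2 changes of 1.70 ± 0.27, 1.26 ± 0.17 and 1.11 ± 0.16 with adjusted p-values of 0.00472, 0.00137 and 0.00183. Ultrasound 1 alone gave -0.28, -0.07 and -0.38 for the same genes, with adjusted p-values of 0.672, 0.887 and 0.332. Those values of p bound the ranges over the 17 fits, apart from Klra7, whose highest was 0.716 without ultrasound 2. Of the Klra7 windows, 14.7% also occur in Klra13-ps, so its level is uncertain.

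**Figure D3:**
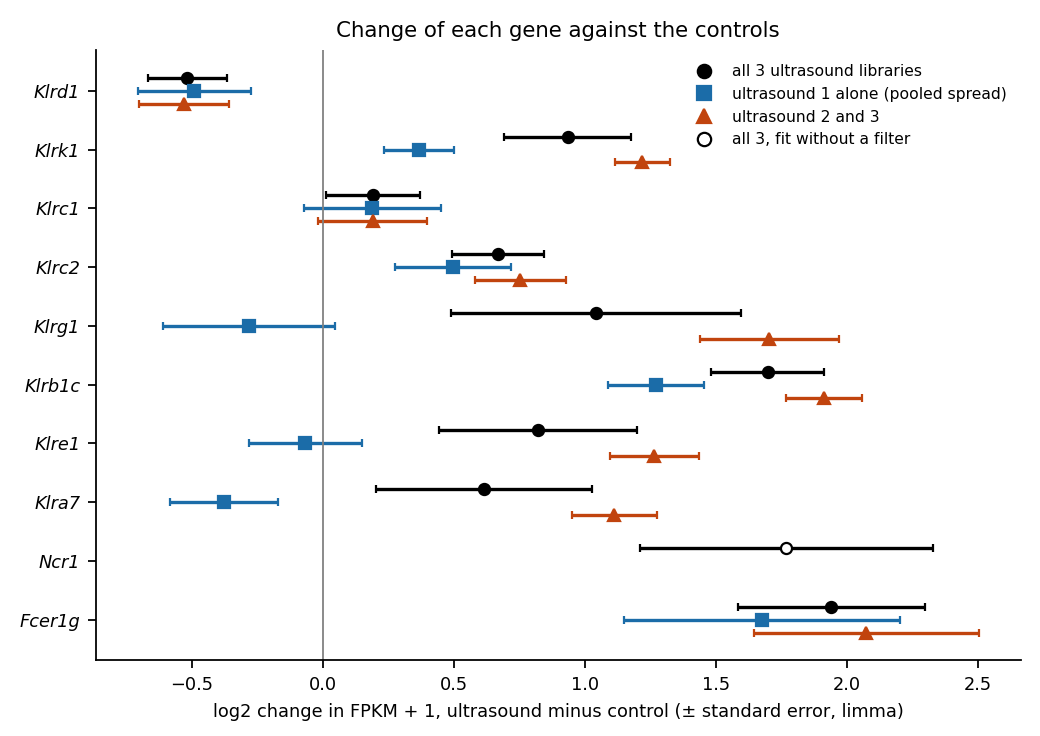
Log2 change of each gene in FPKM + 1, ultrasound minus control, with its standard error from limma: all 3 ultrasound libraries (black circles), ultrasound 1 alone with the spread pooled over libraries (blue squares), and ultrasound 2 and 3 (orange triangles); the open circle is Ncr1 in the fit without a filter. The 3 estimates lie close together for Klrd1, Klrc1 and Klrc2, and those for Klrg1, Klre1 and Klra7 are on opposite sides of 0.

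Ncr1, which encodes the activating receptor NKp46 and is among the most selective markers of NK cells, was low in the controls. It had 7, 8 and 12 reads there, or 0.133, 0.153 and 0.228 FPKM, against 28, 327 and 287 reads, or 0.533, 5.85 and 5.05 FPKM, in the ultrasound libraries. Every ultrasound library was higher, but ultrasound 1 was closer to the controls than to ultrasound 2 and 3. Ncr1 failed the filter on low values, and in the fit without a filter its log2 change on the FPKM + 1 scale was 1.77 ± 0.56 with an adjusted p of 0.140. On recovered reads, voom gave 3.87 ± 1.43 with an adjusted p of 0.133, and the authors' deposited table gives a log2 fold change of 4.34 with q = 6.38e-06. The gene lies on chromosome 7, apart from the lectin cluster, and its 250 bases before the start are shown whole because it holds the motif at 2 places, starting at positions -176 and -41 from the start, in a stretch outside annotated genes.
Ncr1, chr7:4337465-4337714, plus strand: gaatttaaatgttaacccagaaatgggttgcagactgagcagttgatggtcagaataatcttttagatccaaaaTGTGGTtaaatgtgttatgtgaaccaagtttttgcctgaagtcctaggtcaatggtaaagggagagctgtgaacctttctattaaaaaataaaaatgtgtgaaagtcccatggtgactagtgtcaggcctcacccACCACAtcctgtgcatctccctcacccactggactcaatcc

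NK cell markers other than the receptors were set beside these values. As background for this list and those below, 8.11% of all tested genes were called with all libraries and 53.6% without ultrasound 1. Of 13 listed NK markers, 9 were tested, and Cd244a and Il12rb2 rose; Il12rb2 passed the filter through the ultrasound group alone. With median-of-ratios scaling neither was called, and with upper-quartile scaling Cd244a alone. The median log2 change was 0.25, against 0.09 over all tested genes. Of the 9, 8 had a mean above 1 FPKM in the controls. Cd244a was 4.19, 1.87 and 1.67 FPKM in the controls and 7.50, 6.96 and 8.31 FPKM in the ultrasound libraries. Control 1 was its highest control, as for Fcer1g, and ultrasound 1 lay between ultrasound 2 and 3. S1pr5, a receptor that guides NK cells and effector T cells out of tissues, was 2.17, 2.48 and 2.63 FPKM in the controls and 2.86, 14.4 and 17.8 FPKM in the ultrasound libraries, with an adjusted p of 0.114. Gzma, the protease granzyme A, was 21.9, 18.9 and 25.5 FPKM in the controls and 18.9, 178 and 82.3 FPKM in the ultrasound libraries, with an adjusted p of 0.193. In both, ultrasound 1 was near the controls and ultrasound 2 and 3 were higher. Without ultrasound 1 both were called, S1pr5 at a log2 change of 2.31 (adjusted p = 5.07e-05) and Gzma at 2.41 (0.00327). Eomes, a transcription factor of NK and memory CD8 T cells, was 36.1 ± 3.94 against 25.2 ± 6.08 FPKM, and the kinase gene Txk 37.6 ± 2.48 against 33.0 ± 7.60, with adjusted p-values of 0.110 and 0.404. The summed level of the 13 NK markers was 421 to 433 FPKM in the controls and 345, 672 and 514 FPKM in ultrasound 1, 2 and 3. Its largest part was Nkg7, at 307, 289 and 284 FPKM in the controls and 228, 359 and 304 FPKM in the ultrasound libraries. No marker of the list was at 0 in every library, and Cma1 was listed at 0 in control 2. Voom called 3 of 12 NK markers, where 6.05% of genes were called. The third was Itga2, at a log2 change of 0.99 (adjusted p = 0.0474), which failed the main filter. With median-of-ratios factors voom did not call Itga2. The authors' deposited values had a q under 0.05 for 6 of 13: Cd244a, Cma1, Il12rb2, Itga2 and S1pr5 higher and Eomes lower. Over all genes 7.3% were higher and 4.98% lower. Without ultrasound 1, 5 of 8 tested NK markers were called, 4 higher and Txk lower, where 53.6% of all tested genes were. The part of NK cells in the levels of the receptor genes was not tested.

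Effector markers of CD8 T cells, which also include genes of NK cells, were, like the NK list, lower in sum in ultrasound 1 than in any control and higher in ultrasound 2 and 3. Of 13 tested, Gzmb and Cd44 rose and none fell, where 8.11% of all tested genes were called, with a median log2 change of 0.35. With median-of-ratios or upper-quartile scaling Gzmb alone was called. Gzmb, the protease granzyme B, was 28.8, 23.4 and 23.4 FPKM in the controls and 43.2, 65.2 and 45.7 FPKM in the ultrasound libraries, with no overlap, a log2 change of 0.98 ± 0.17 and an adjusted p of 0.0311. Cx3cr1, a chemokine receptor of terminal effector cells and of monocytes, was 4.26, 3.80 and 3.81 FPKM in the controls and 5.18, 30.8 and 40.1 FPKM in the ultrasound libraries, with an adjusted p of 0.102. Without ultrasound 1 Cx3cr1 was called, at a log2 change of 2.87 (adjusted p = 3.16e-05). Fasl and Il2rb had log2 changes of -0.09 and -0.05 and were not called. The summed level was 1135 to 1243 FPKM in the controls and 1103, 1775 and 1808 FPKM in ultrasound 1, 2 and 3. Its largest part was Ccl5, at 682, 601 and 625 FPKM in the controls and 516, 993.5 and 1035 FPKM in the ultrasound libraries. The median log2 change of the list for ultrasound 1 alone was 0.04. Without ultrasound 1, 9 of 13 were called, where 53.6% of all tested genes were. For markers of gamma delta and NKT cells, 5 of 9 were measured, 2 were tested and neither was called by limma or voom (1 had an unadjusted limma p under 0.05): Blk was 13.4 ± 2.56 against 29.7 ± 18.9 FPKM and Cd163l1 4.09 ± 0.464 against 2.74 ± 0.798. The summed level of the 5 was 15.9 to 20.9 FPKM in the controls and 12.5, 46.2 and 44.2 FPKM in ultrasound 1, 2 and 3. Most of it was Blk, at 16.4, 11.7 and 12.2 FPKM in the controls and 7.99, 42.1 and 39.1 FPKM in the ultrasound libraries. Summed B cell markers were 325, 212 and 212 FPKM in the controls and 158, 844 and 730 FPKM in the ultrasound libraries. The part of B cells in the level of Blk was not tested. Without ultrasound 1 both were called, Blk higher at a log2 change of 1.54 (adjusted p = 0.000549) and Cd163l1 lower at -0.62 (0.00508).

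Fcer1g, the gamma chain that carries the signal of Fc receptors, of NKp46 and of NK1.1, rose in the ultrasound libraries. Its level was 89.85, 38.8 and 37.9 FPKM in the controls and 165, 177 and 268 FPKM in the ultrasound libraries. The groups did not overlap, and control 1 was more than 2 times as high as the other controls. The means were 55.5 ± 29.7 and 203 ± 56.5 FPKM (SD, n = 3), and the log2 change was 1.94 ± 0.36 with an adjusted p of 0.0322. Ultrasound 1 alone gave 1.67 ± 0.53 with an adjusted p of 0.150, and without it the change was 2.07 ± 0.43 with an adjusted p of 0.0118. Over the 17 fits the adjusted p reached 0.160 without control 2, and the call was lost in the fits in which limma called no gene at all and in the one for ultrasound 1 alone. The authors' deposited table gives 1.75 with q = 0.000145.

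The summed monocyte and macrophage markers and neutrophil markers, of myeloid cells in which Fcer1g is abundant, were also higher in every ultrasound library. Of 13 tested monocyte and macrophage markers, 8 rose and none fell, with a median log2 change of 1.49; Ms4a7, 1 of the 8, passed the filter through the ultrasound group alone. With median-of-ratios scaling 5 were called, and without ultrasound 1, 10 of 11 were, where 53.6% of all tested genes were. The summed level was 1013, 688 and 727 FPKM in the controls and 2085, 2385 and 3770 FPKM in the ultrasound libraries. Of 10 neutrophil markers 3 rose, with a median of 1.86, and the sums were 575, 187 and 192 FPKM against 2319, 642 and 673. The neutrophil sum was highest in ultrasound 1, where Fcer1g was lowest among the ultrasound libraries. Without ultrasound 1, 7 of 10 were called. Control 1 was the highest control for both lists, as it was for Fcer1g. Of 7 basophil and mast cell markers 2 were tested and both rose, Mcpt8 passing the filter through the ultrasound group alone, and Hdc was not called with median-of-ratios or upper-quartile scaling; the sums were 1.66 to 3.16 FPKM in the controls and 7.72 to 9.78 in the ultrasound libraries. B cell markers had summed levels of 212 to 325 FPKM in the controls and 158, 844 and 730 FPKM in ultrasound 1, 2 and 3, and none of 8 tested was called by limma or voom, or had an unadjusted limma p under 0.05, with all libraries. All 8 were called without ultrasound 1. Platelet and dendritic cell markers had 2 tested genes each, with none called by the main limma fit or voom and 1 in all at an unadjusted limma p under 0.05. With the filter of 10 reads in every library, limma called the platelet gene Itga2b higher, where 763 of 12614 genes were called. By the authors' deposited values Itga2b and the dendritic genes Clec9a and Xcr1 were higher at a q under 0.05, where 7.3% of genes were. The sums were 1.07 to 2.78 against 1.86 to 4.46 FPKM for platelets and 17.5 to 37.0 against 21.7 to 63.1 FPKM for dendritic cells. Without ultrasound 1 both dendritic genes, Flt3 and Itgax, were called higher, and no platelet gene passed the filter. Of 10 T cell identity genes none was called by limma or voom or had an unadjusted p under 0.05, and their sum was 2505 to 2658 FPKM in the controls and 2151 to 2835 in the ultrasound libraries. With median-of-ratios scaling 4 of these T cell genes had an unadjusted limma p under 0.05, and with upper-quartile scaling 2, with none called. Without ultrasound 1, Cd3e and Lck were called higher. No gene of these lists was at 0 in every library, and their part in the level of Fcer1g was not tested.

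**Figure D4:**
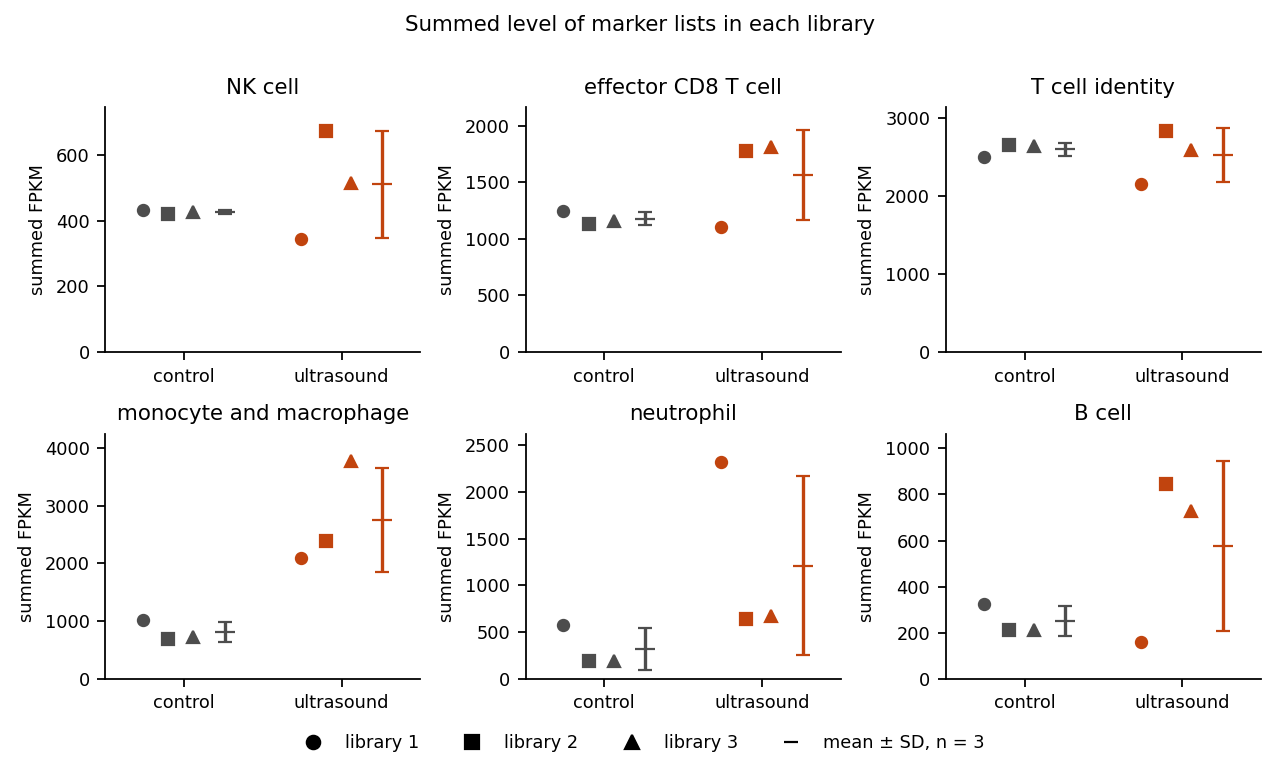
Summed FPKM of 6 marker lists in each library; symbols and bars as in the plot of levels by library. The sum of monocyte and macrophage markers was above the controls in all 3 ultrasound libraries. The sums of NK, effector and B cell markers were above them in ultrasound 2 and 3 and below them in ultrasound 1. Nkg7 is the largest part of the NK sum and Ccl5 of the effector sum.

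The receptors that use the gamma chain gave a similar picture. Of 9 measured partners 6 were tested, Fcgr1, Fcgr3, Fcgr4 and Clec4d rose, and none fell, with a median log2 change of 1.53. Fcgr3, the low-affinity IgG receptor of myeloid and NK cells, was 13.6, 5.40 and 5.66 FPKM in the controls and 38.1, 27.6 and 41.4 FPKM in the ultrasound libraries, a log2 change of 2.08 ± 0.33 with an adjusted p of 0.0304. Fcgr4 was 10.7 ± 6.42 against 40.2 ± 15.4 FPKM, with an adjusted p of 0.0447. Clec4n and Clec4e, myeloid lectins that bind fungal or bacterial sugars, had log2 changes of 0.82 and 0.76 and were not called. With median-of-ratios scaling Fcgr3 alone of this list was called, and with upper-quartile scaling Fcgr3 and Clec4d. Without ultrasound 1 the same 4 of 6 were called, where 53.6% of all tested genes were.

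The other adaptors and signalling proteins divided. Of 18 tested, Tyrobp and Sh2d1b1 rose and Sh2d2a fell, where 8.11% of all tested genes were called, and the median log2 change was 0.04. Tyrobp, the DAP12 adaptor of activating NK and myeloid receptors, was 136, 42.6 and 55.8 FPKM in the controls and 222, 231 and 359 FPKM in the ultrasound libraries, a log2 change of 1.92 ± 0.43 with an adjusted p of 0.0447. Fcer1g divided by Tyrobp was 0.659, 0.912 and 0.681 in the controls and 0.745, 0.767 and 0.748 in the ultrasound libraries, an overlap with an exact permutation p of 1. Sh2d2a, a T cell adaptor that binds Lck, was 58.7 ± 3.66 against 40.1 ± 4.05 FPKM, a log2 change of -0.54 ± 0.10 with an adjusted p of 0.0337. Plcg2, the phospholipase used by B, myeloid and NK cells, was 15.4 ± 4.97 against 46.0 ± 19.0 FPKM with an adjusted p of 0.0544, and Sh2d1a, the SAP adaptor, 35.1 ± 1.13 against 29.4 ± 5.84 FPKM with 0.248. Tyrobp and Sh2d1b1 were not called with median-of-ratios or upper-quartile scaling, and Sh2d2a was. Without ultrasound 1, 11 of 18 were called, 8 higher, Plcg2 among them, and 3 lower, where 53.6% of all tested genes were called.

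Ligands of these receptors, measured in the same cells, were not called in either direction. Of 14 measured 6 were tested, and at an unadjusted limma p under 0.05 the count was also 0. Voom called 0 of 8, with 1 at an unadjusted p under 0.05. The median log2 change was 0.03. H2-K1 and H2-D1, the classical class I genes whose products Ly49 receptors bind, were 1603 ± 110 against 1671 ± 50.5 FPKM and 1451 ± 44.7 against 1671 ± 214 FPKM. Ulbp1, an NKG2D ligand, was 2.62 ± 0.530 against 2.30 ± 0.380 FPKM, and Clec2i, a ligand of the NKR-P1 family, 27.7 ± 1.54 against 26.9 ± 2.34 FPKM. Without ultrasound 1, H2-D1 was called higher.

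The remaining killer lectin-like genes did not move as one. Of 18 measured 9 were tested, and Klra2 and Klrb1b rose and Klra10 fell, where 8.11% of all tested genes were called. The median log2 change was 0.27. Klra2, the Ly49B receptor known from myeloid cells, was 4.81, 2.09 and 1.55 FPKM in the controls and 9.68, 8.48 and 11.2 FPKM in the ultrasound libraries, a log2 change of 1.59 ± 0.30 with an adjusted p of 0.0333. Like Fcer1g and Tyrobp, it was highest among the controls in control 1, and it was as high in ultrasound 1 as in the others. Klrb1b, the inhibitory NKR-P1B, was 0.692, 0.336 and 0.307 FPKM in the controls and 1.22, 1.78 and 1.65 FPKM in the ultrasound libraries; it passed the filter through the ultrasound group alone, so it had to differ, and its adjusted p was 0.0316. Klra10, a Ly49 receptor, was 1.90, 2.30 and 2.14 FPKM in the controls and 0.651, 1.24 and 0.824 FPKM in the ultrasound libraries, a log2 change of -0.72 ± 0.14 with an adjusted p of 0.0360.

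Klra4 and Klra8, the activating Ly49D and Ly49H receptors, had the order of Klra7. Klra4 was 0.428, 0.227 and 1.01 FPKM in the controls and 0.361, 4.20 and 2.61 FPKM in the ultrasound libraries, and Klra8 was 1.13, 0.436 and 1.68 against 0.772, 3.87 and 3.63. Neither was called with all libraries, with adjusted p-values of 0.216 and 0.254. Klra3, Klra6, Klri1 and Klrb1f had log2 changes of -0.43, -0.12, -0.10 and 0.27, with adjusted p-values of 0.207 or higher. Without ultrasound 1, 5 of 8 tested genes of the family were called, where 53.6% of all tested genes were. Klra2, Klra4, Klra8 and Klrb1f were higher and Klra10 lower. Shared 50-base windows made up 39.8% of Klra10, 33.1% of Klra8, 29% of Klrb1b and 21.5% of Klra3, so these levels are uncertain, and none of Klra2.

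Neighbouring genes on chromosome 6 differed in direction. The stretch from Klrb1c to Klra7 (chr6:128778485-130233322, GRCm38.p6, chosen after the values were seen) holds 39 genes of the table in 1.45 Mb, of which 24 were tested. Klrb1c, Klrb1b and Clec12a rose and Cd69 fell, where 8.11% of all tested genes were called, and the median log2 change was 0.66. Klrb1b passed the filter through the ultrasound group alone, so it had to differ. Clec12a, an inhibitory receptor of myeloid cells, was 5.62 ± 2.01 against 20.8 ± 3.68 FPKM with an adjusted p of 0.030. Cd69, an early activation gene, was 258 ± 26.7 against 58.9 ± 53.9 FPKM with an adjusted p of 0.0442. Without ultrasound 1 the log2 changes were 1.82 for Clec12a (adjusted p = 0.00441) and -3.17 for Cd69 (1.66e-05). Klre1 lies 2.26 kb before Klrd1 and Klrk1 11.5 kb after it, and Klrd1 was lower in all ultrasound libraries while Klrk1 was higher. Of the other 17 tested genes of the stretch that are not in the set of 10, 3 were called, Klrb1b among them.

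**Figure D5:**
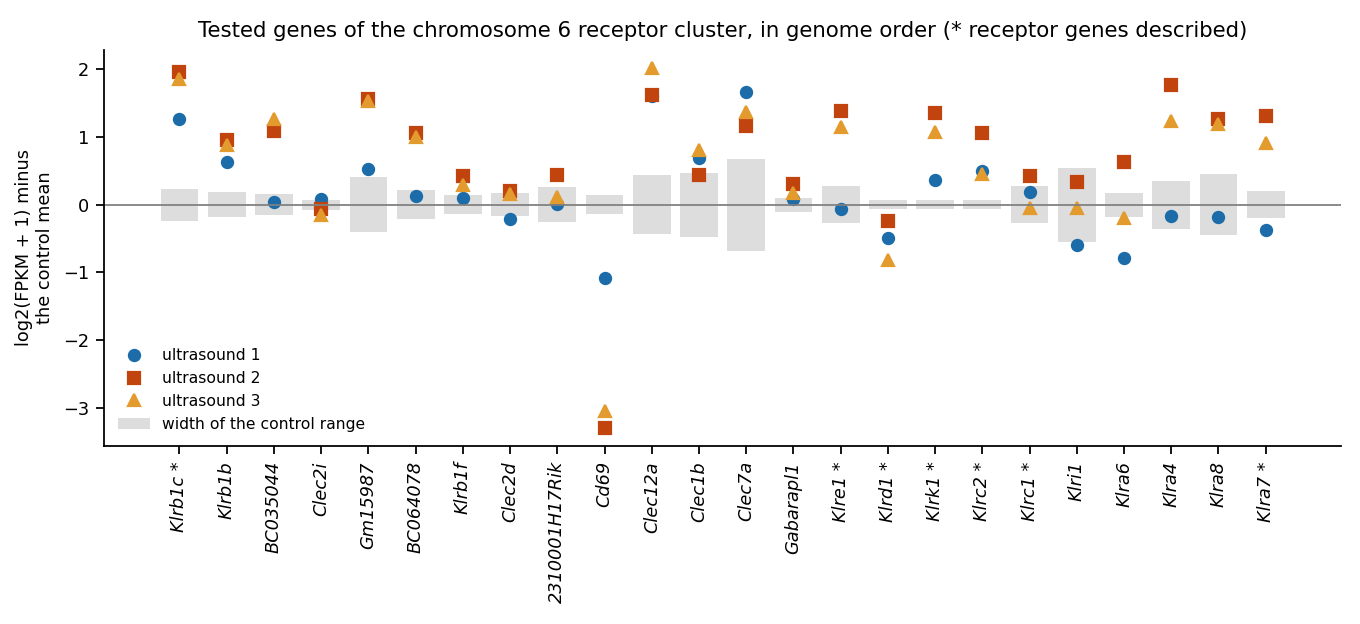
Log2(FPKM + 1) of each ultrasound library minus the mean of the controls, for the 24 tested genes from Klrb1c to Klra7 in genome order; grey bars are as long as the range of the controls, centred on 0, and asterisks mark the receptor genes described. Klrd1 lies below 0 between Klre1 and Klrk1, and Cd69 is the lowest gene of the stretch.

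For each tested member, the 3 genes with the closest pattern were listed by Pearson's r over the 6 libraries. The points share libraries, depth and the gap between ultrasound 1 and the other ultrasound libraries, so r is a description. For Fcer1g they were Tpd52, Spi1 and Clec4a3 (all with r = 0.999), of which Spi1 encodes a transcription factor of myeloid and B cells. Klrg1 and Klre1 had Poll in common, beside Inpp5e and Fuz for Klrg1 and Mthfsd and Rhof for Klre1, at r of 0.995 to 0.998. The closest were Ppp3cc, Ccne2 and Csnk2b to Klrd1, Mrpl44, Sec22b and Gins4 to Klrk1, and D330041H03Rik, Ipo8 and Lzic to Klrc1. They were Minpp1, Nsun4 and Them6 for Klrc2, 2310022A10Rik, Gpat4 and Tmppe for Klrb1c, and Ptprcap, Git2 and Dcp1b for Klra7. No member was among the 3 closest genes of another.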

How the data were processed

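RNA was measured in 6 libraries. Values were read from the authors' deposited full table, whose FPKM columns hold 1 value per gene and library, per the file headers. The same table holds a signal column set, group means of DESeq2 normalized counts made by the authors, per the file headers. Its fold change is the ratio of those means and its log2 fold change their log2, with a p-value and q-value from the authors' comparison, per the file headers. The submitters' processing notes name HISAT2, HTSeq, DESeq2, R 3.2.0 and mm10 without roles. Whether counting used strand is not given in the sources used here. A deposited filtered table was not used. The labels name the library kit in 2 versions.

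Whole reads were recovered from the FPKM values and group means, which obey one linear relation. Of 77579 values below 2000 reads, 100% lay within 0.05 of a whole number. Reads carry no molecular identifiers.

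Limma 3.58.1 (trend, robust; R 4.3.3) was fitted on log2(FPKM + 1) over genes that reached an FPKM of 1 in 3 or more libraries, two-sided, with Benjamini-Hochberg adjustment and a threshold of 0.05. This scale understates changes of low genes. The fit was tested on simulated data. Alternatives were 2 scalings, 2 filters, another pseudocount, a non-robust fit, a replicate block, leaving out each library, voom on the recovered reads, a separate term for ultrasound 2 and 3, other thresholds and the authors' deposited values. Voom with median-of-ratios factors and the ratios were added after seeing the data. Scripts used Python 3.11.15 with pandas 2.3.3, numpy 2.4.6, scipy 1.17.1 and matplotlib 3.10.9.

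The set of 10 genes and all lists were chosen with earlier results of these data known. Named are the 10 genes, the tested genes of the killer lectin-like family, the 2 highest and 2 lowest log2 changes of the adaptor, ligand, gamma chain partner, NK, gamma delta and NKT, and effector lists, the 3 closest patterns per member, and the sort markers. Other genes, such as Hcst, Cd69, Clec12a, Mcpt8 and further called list members, were named after their values were seen.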

Additional observations from a re-analysis of the deposited data

How the results depend on the processing

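With all libraries 2 of the 9 tested genes were called, and the same 2 (Klrb1c and Fcer1g) with median-of-ratios or upper-quartile scaling, the non-robust fit, a filter of 10 reads per library, a pseudocount of 0.1, voom and voom with median-of-ratios factors. The count was 0 with no filter, 0 with a replicate block (adjusted p of 0.067 for Klrb1c and 0.0963 for Fcer1g), 1 with a term for ultrasound 2 and 3, 5 by the authors' deposited values, 0 at an adjusted p under 0.01 and 5 under 0.1; leaving out 1 library gave 0 to 8. Over all genes the count of 864 became 437 with median-of-ratios scaling, 531 with voom and those factors, 0 with no filter, 0 with the replicate block, 150 with the term, 2179 by the authors' values, 0 under 0.01 and 1962 under 0.1, and 0 to 5628 with 1 library left out. The fits with no calls among all genes had 1913 to 4216 genes at an unadjusted p under 0.05. The cause was not tested. The main calls were 698 higher and 166 lower, against 293 and 144 with median-of-ratios scaling, 431 and 192 with upper-quartile scaling and 319 and 212 with voom and median-of-ratios factors; voom gave 671 and 172. The median log2 change of all genes was 0.12 with voom and -0.01 with median-of-ratios factors on the same reads. Of 156 values of single genes under alternatives, 131 kept direction and side of the threshold, 13 lost and 9 gained the call, and 3 changed direction: Klrg1 (-0.28), Klre1 (-0.067) and Klra7 (-0.38) with the term for ultrasound 2 and 3. The ratio of Fcer1g to Tyrobp, ultrasound mean over control mean, was 1.003 and turned to 0.946 without control 1, 0.959 without control 3 and 0.994 without ultrasound 2; leaving out each library gave 0.946 to 1.124. The titles share replicate numbers, but deviations from the group means of same-numbered libraries correlated at -0.041, 0.051 and 0.058, so the numbers were not taken to pair the samples. Ncr1, with 7 to 12 reads in the controls, is the value that depth limits most.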

Other observations

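The other chains of the high-affinity IgE receptor, which Fcer1g completes in basophils and mast cells, were near the limit of detection. Fcer1a was 0 to 0.0277 FPKM in the controls, where control 3 was listed at 0, and 0.110, 0.233 and 0.229 FPKM in ultrasound 1, 2 and 3. Ms4a2 was 0 to 0.0588 FPKM in the controls, where control 1 was listed at 0, and 0.0983, 0.222 and 0.218 FPKM in the ultrasound libraries. Mcpt8, a protease of basophils, was 0.0998, 0.0503 and 0.125 FPKM in the controls and 1.23, 1.10 and 1.34 FPKM in the ultrasound libraries, and it passed the filter on low values through the ultrasound group alone. Ultrasound 1 was as high as the other ultrasound libraries for Mcpt8 and lower than both for Fcer1a and Ms4a2.

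Cma1, a chymase of NK and mast cells, was 0.0260, 0 and 0.130 FPKM in the controls and 0.0521, 1.74 and 1.01 FPKM in the ultrasound libraries, and Zbtb16, the PLZF transcription factor of innate-like T cells, was 0.0933, 0.153 and 0.138 against 0.322, 0.507 and 0.918 FPKM. Both failed the filter on low values and did not enter the main fit. In the limma fit without a filter the log2 changes were 0.77 for Cma1 (adjusted p = 0.225) and 0.47 for Zbtb16 (0.123). On recovered reads, voom gave 2.08 for Zbtb16 with an adjusted p of 0.0555 and did not test Cma1. By the authors' deposited values both had a q under 0.05.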
